A study of Mus musculus with 2 samples.

Results

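Interferon-stimulated genes were read in single donor CD4 T cells from allergic mouse lung. The set held 44 genes chosen by symbol, and 43 of them had a row among the 32285 genes of the count tables; Mx1 was not analysed here. They comprised 26 antiviral effectors and sensors, 3 transcription factors of the pathway (Irf7, Irf9 and Stat2), 4 PYHIN genes (Ifi203, Ifi208, Ifi209 and Ifi213), 6 interferon-inducible GTPases (Ifi47, Igtp, Irgm1, Gbp2, Gbp4 and Gbp7) and 4 Schlafen genes. Within the antiviral members, 9 were summed as a core: Isg15, Ifit1, Ifit2, Ifit3, Rsad2, Usp18, Oasl1, Oasl2 and Cmpk2. Every gene was counted in barcodes with at least 500 UMIs (unique molecular identifiers, 1 per captured transcript), 250 or more detected genes and no more than 10% of UMIs from mitochondrial genes.

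House dust mite extract was given to wild-type donor mice on day 0 and on days 7 to 11. Their lung CD4 T cells then received Cell Trace Violet, which each division dilutes, and on day 14 were transferred into C57BL/6 hosts (WT host) or into MARCH1-/- hosts. All hosts were challenged with the extract, and dye-low donor cells were sorted from the lung 4 days after the challenge. MARCH1, a ubiquitin ligase, removes MHC class II and CD86 from the surface of antigen-presenting cells; donor cells carried its wild-type gene in both groups. There was 1 library per host, the sources used here do not say how many animals went into each, and no test between hosts was possible. All intervals below are 95% and cover counting error only, not the spread between animals, preparations or cells.

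Type I interferons bind IFNAR, and the kinases JAK1 and TYK2 then activate a complex with STAT2 and IRF9 on the interferon-stimulated response element (ISRE) of antiviral genes. Interferon gamma acts through IFNGR on gamma-activated sites (GAS), and the immunity-related and guanylate-binding GTPases respond strongly to it. Many of these genes answer to both ligands. In T cells the programme is known as a marker of recent interferon exposure.

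The promoters of the members are shown first, because they hold the elements through which interferons act. RefSeq (GRCm38.p6) gave a promoter for 35 of the 44 symbols, and the 250 bases before each start were searched on both strands for the ISRE letters GAAANNGAAA and the GAS letters TTCNNNGAA, counting overlapping matches. An ISRE match stood in 17 of the 35 members (48.6%), against 936 of 27025 genes (3.46%) with a promoter of the same length. A GAS match stood in 8 of the 35 (22.9%), against 8.13% of all genes. By role, an ISRE match was found in 7 of 19 antiviral members, among them 4 of the 8 core antiviral genes. It was also found in 4 of 5 GTPases, 3 of 4 PYHIN genes, 2 of 4 Schlafen genes and 1 of 3 transcription factors. A match is a description of these letters and was not tied to binding. The stretches below run 5′ to 3′ along the gene's strand, with the matches in capitals. Isg15, Ifit1 and Ifit3 stand for the core antiviral genes.
Isg15, chr4:156200855-156200916, minus strand: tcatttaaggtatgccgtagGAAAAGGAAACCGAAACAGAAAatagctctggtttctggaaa
Ifit1, chr19:34640765-34640833, plus strand: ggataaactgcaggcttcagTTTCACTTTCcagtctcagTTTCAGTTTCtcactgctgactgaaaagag
Ifit3, chr19:34583353-34583436, plus strand: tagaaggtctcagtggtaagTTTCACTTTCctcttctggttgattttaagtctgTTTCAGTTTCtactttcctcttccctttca

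The GTPases are shown because Igtp and Gbp7 carry both kinds of match in one stretch, while Gbp2 and Irgm1 carry ISRE matches only.
Igtp, chr11:58199491-58199551, plus strand: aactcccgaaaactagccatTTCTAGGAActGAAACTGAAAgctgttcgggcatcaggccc
Irgm1, chr11:48871421-48871470, minus strand: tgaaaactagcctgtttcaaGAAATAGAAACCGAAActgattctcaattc
Gbp2, chr3:142620584-142620633, plus strand: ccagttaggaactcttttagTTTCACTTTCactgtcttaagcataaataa
Gbp7, chr3:142530210-142530312, plus strand: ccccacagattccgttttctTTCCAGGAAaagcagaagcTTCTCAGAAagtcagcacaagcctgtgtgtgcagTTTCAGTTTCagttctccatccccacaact

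The PYHIN genes, a cluster on chromosome 1 of closely related copies, are shown because these 3 hold the same match.
Ifi203, chr1:173942498-173942547, minus strand: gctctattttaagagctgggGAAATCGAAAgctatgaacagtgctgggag
Ifi208, chr1:173673587-173673636, plus strand: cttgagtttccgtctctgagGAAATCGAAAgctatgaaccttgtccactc
Ifi213, chr1:173599316-173599365, minus strand: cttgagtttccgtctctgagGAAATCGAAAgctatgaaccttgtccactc
The lines of Ifi208 and Ifi213 are letter for letter the same. No ISRE match stood in the window of Ifi209.

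The WT-host library gave 352 cells with 2571048 UMIs (median 6086.5 per cell) and the MARCH1-/- host library 156 cells with 1575581 UMIs (median 8017). No barcode was shared between the cells of the libraries. All 12 CD4 T cell markers were seen in both libraries, at a sum of 4552 and 6097 UMIs per 1e+06 (CPM), against 1.94 and 4.44 CPM for B cell markers and 18.7 and 21.6 CPM for macrophage and monocyte markers. Over the 8770 genes with at least 20 UMIs, the median log2 ratio of the MARCH1-/- over the WT host library was 0.25, so a gene at 0 lay below the typical gene.

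The core antiviral genes were not detected in most cells of either library and were high in a few. A core UMI was absent from 216 of 352 cells (61.4%) of the WT host and from 101 of 156 (64.7%) of the MARCH1-/- host. The most active 10% of cells held 69.4% of all core UMIs for the WT host (36 cells) and 84.8% in the MARCH1-/- host (16 cells). For the GTPases the top 10% held 35.6% and 41.9%. The highest cells reached 112, 109 and 87.5 core UMIs per 10000 UMIs in the WT host, and 120, 98.8 and 36.0 in the MARCH1-/- host, while the median cell had 0.

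**Figure D1:**
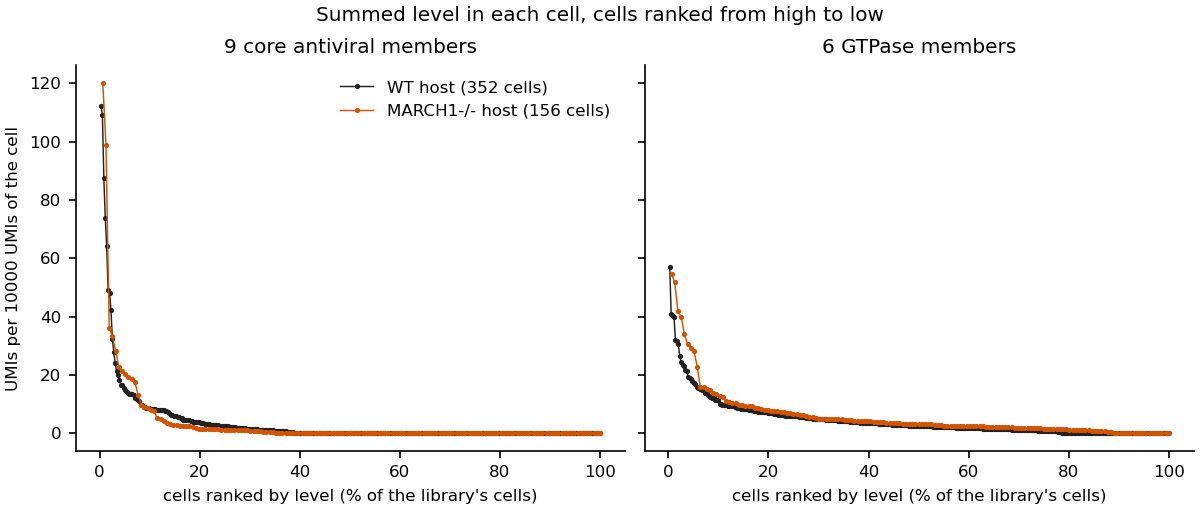
Summed UMIs per 10000 of the 9 core antiviral members (left) and the 6 GTPase members (right) in each cell, with cells ranked from high to low as a percentage of the library's cells. Core antiviral levels start at 112 (WT host) and 120 (MARCH1-/- host) and reach 0 before the middle of the ranking, while GTPase UMIs were seen in 78.4% and 89.1% of cells.

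Evenness measured this per gene, as the number of cells with a UMI over the number reached if the gene's UMIs fell on cells in proportion to their depth. Its median over genes with at least 50 UMIs was 0.94 in WT-host cells and 0.95 in MARCH1-/- host cells. Ifit3 (ENSMUSG00000074896, GRCm38 chromosome 19, 34583531 to 34588731), which encodes an RNA-binding antiviral adaptor, had 69 UMIs in 19 cells of the WT host, an evenness of 0.32, with 15 of them in 1 cell. In the MARCH1-/- host it had 37 UMIs in 7 cells, 22 of them in 1 cell. Reads of Ifit3 and its close copy Ifit3b may have been split between them.

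Rsad2 encodes viperin, an enzyme that blocks viral replication, and Ifit1 a sensor of foreign RNA caps. Rsad2 had 97 UMIs in 36 cells (evenness 0.45) in WT-host cells and 31 UMIs in 12 cells in MARCH1-/- host cells. Ifit1 had 92 UMIs in 37 cells (0.48) and 62 UMIs in 15 cells (0.32). Isg15, a ubiquitin-like modifier, was seen in 90 cells (25.6%) with 243 UMIs and in 38 cells (24.4%) with 160 UMIs, at an evenness of 0.57 and 0.43. These 4 genes were the least even of the members with at least 50 UMIs in the WT host, and Ifit1 and Isg15 in the MARCH1-/- host, where Slfn5 followed at 0.50.

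Other members were seen in far more cells. Ifi27l2a, a small mitochondrial protein gene of the ISG12 family, was seen in 336 of 352 and 141 of 156 cells; at its UMI number nearly every cell would be reached by any wide spread, so its evenness (0.96 and 0.90) says little, and the 5% of cells with the most of it held 28.1% and 27.1% of its UMIs. Ly6e, a membrane protein that restricts viral fusion, was seen in 313 and 147 cells (0.96 and 0.97), and its top 5% of cells held 19.5% and 19.6%. Sp100, a component of nuclear bodies, reached 1.01 and 0.99, and Ifi35 1.02 and 0.98. The GTPases had a median of 0.87 and 0.83, and all 6 lay above the core genes scored in the WT host. An evenness of at most 0.8 was found for 10 of 36 members in the WT host, against 9.56% of all genes, and for 10 of 27 in the MARCH1-/- host, against 11.3% (9.35% and 11.7% of genes with 50 to 300 UMIs). At most 0.5 was found for 3 members in the WT host (1.48% of all genes) and for 3 in the MARCH1-/- host (1.78%). The counts at 0.8 included all 4 core genes deep enough to score in WT-host cells and both in MARCH1-/- host cells.

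**Figure D2:**
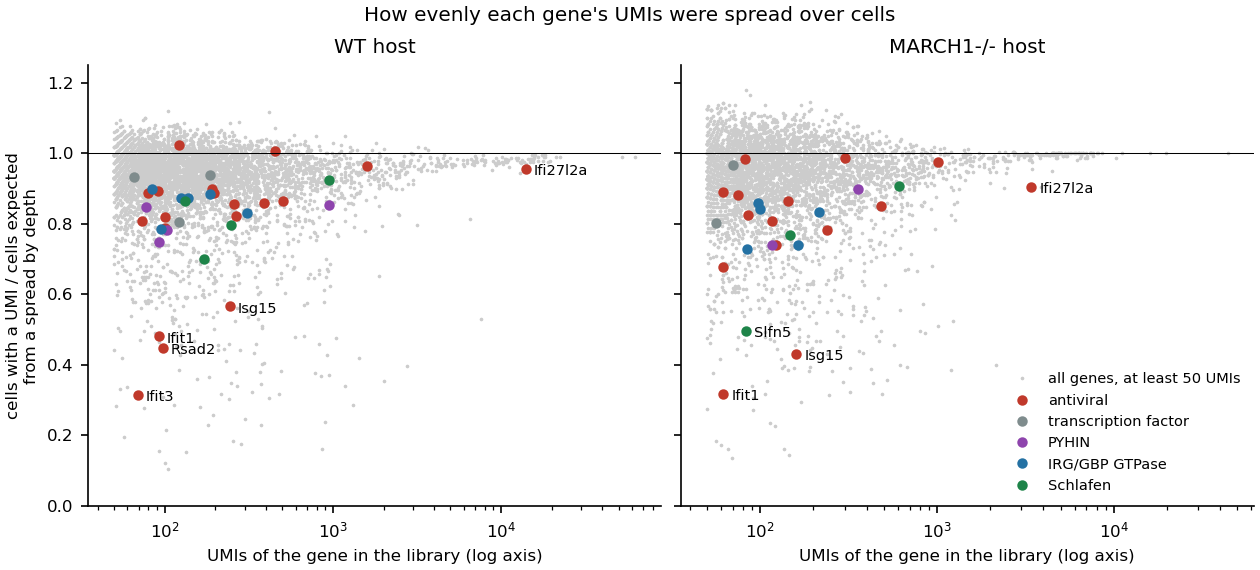
Evenness of each gene (cells with a UMI over cells reached by a spread in proportion to depth, vertical axis) against its UMIs in the library (horizontal log axis), for all genes with at least 50 UMIs in grey and for the members in colour by role. Ifit3 (0.32), Rsad2 (0.45), Ifit1 (0.48) and Isg15 (0.57) lie far below most grey points in the WT host, of which 1.48% lie at 0.5 or lower. The GTPases lie between 0.79 and 0.90.

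Shares of cells with a UMI depend on depth, so each cell was also thinned to 1000 UMIs, which left out 11 shallower cells of the WT host and none of the MARCH1-/- host. At that depth 16.7% of WT-host cells (12.9 to 21.1) and 12.2% of MARCH1-/- host cells (7.49 to 18.4) had a core UMI, and 32.6% (27.6 to 37.8) and 35.3% (27.8 to 43.3) a GTPase UMI. The intervals of the hosts overlapped for both. No cell type here lacks these genes, so free RNA was estimated from barcodes with at most 100 UMIs. Their composition predicted a stray core UMI in 0.203% of WT-host and 0.0232% of MARCH1-/- host cells, at 6.52 and 2.71 UMIs per such barcode. If each cell instead carried 100 free UMIs, the shares would be 3.07% and 0.854% for the core, where 38.6% and 35.3% were measured at full depth. How many free UMIs a cell carried was not tested.

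Cells with at least 3 different core genes and at least 5 core UMIs per 10000 were called strong. They were 38 of 352 in WT-host cells (10.8%, 7.75 to 14.5) and 13 of 156 in MARCH1-/- host cells (8.33%, 4.51 to 13.8), and they held 71.9% and 81.0% of the core UMIs. The cut has no gap around it. At exactly 3 genes stood 18 and 5 of the strong cells, and 11 and 1 further cells were high enough with only 2 genes. Requiring 4 genes left a WT-host share of 5.68%. Thinning to 1000 UMIs left 1.76% and 1.28%, so the share depends on depth.

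The strong cells were CD4 T cells by their markers and were no deeper than the rest. All 12 CD4 T cell markers were seen in them, and their median depth was 5189 UMIs against 6275.5 in the other WT-host cells, and 5746 against 8286 in the MARCH1-/- host. Markers of NK cells and neutrophils were at 0 UMIs in the strong cells of both libraries. The macrophage and monocyte list was seen there through 1 of its 12 markers, Ly6c2, with 2 UMIs in 1 WT-host cell (8.46 CPM, 19.7 in the other cells) and 19 UMIs in 1 MARCH1-/- host cell (210 CPM, 10.1 in the other cells), and Csf1r, Adgre1, Lyz2 and C1qa were at 0. Dendritic cell markers came to 25.4 CPM in strong and 28.7 in other WT-host cells, and to 11.0 and 41.8 CPM in the MARCH1-/- host, with H2-Aa and H2-Ab1 at 0 in the strong cells.

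GTPase genes were high in the same cells, although they did not enter the definition. In the WT host they came to 1163 CPM in strong and 283 in other cells, a log2 ratio of 2.04 (1.83 to 2.24). In the MARCH1-/- host the values were 2043 and 348 CPM, a log2 ratio of 2.55 (2.30 to 2.80). All 38 and all 13 strong cells had a GTPase UMI, at a median of 9.48 and 15.9 per 10000, against 2.19 and 2.91 in the other cells.

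GTPase expression was not confined to strong cells. Those held 29.4% of the WT-host and 26.4% of the MARCH1-/- host GTPase UMIs. Among cells without any core UMI, 154 of 216 (71.3%, 64.8 to 77.2) and 89 of 101 (88.1%, 80.2 to 93.7) had a GTPase UMI, and the highest of these cells reached 23.4 and 40.0 per 10000. Over cells, core and GTPase levels (natural log of UMIs per 10000 plus 1) had a Pearson correlation of 0.49 in either library, and Spearman correlations of 0.38 over 352 and 0.31 over 156 cells. These cells share a library and many are tied at 0.

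**Figure D3:**
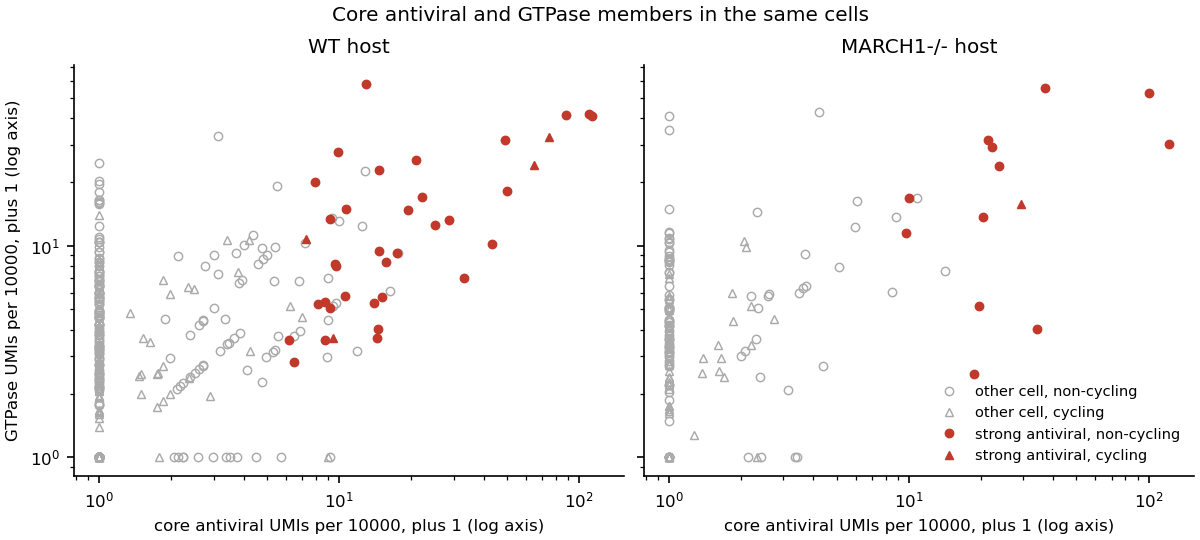
GTPase against core antiviral UMIs per 10000 UMIs, each plus 1 on log axes, with 1 point per cell, strong cells in red and cycling cells as triangles. Strong cells lie to the right and mostly high, at a median GTPase level of 9.48 (WT host) and 15.9 (MARCH1-/- host), while the column at the left edge holds the 216 and 101 cells without a core UMI, many with GTPase UMIs.

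Nearly every member outside the core was higher in the strong cells. A ratio of at least 2-fold was reached by 32 of 34 such members with at least 20 UMIs in the WT host, against 6.36% of all genes, and by 30 of 31 in the MARCH1-/- host, against 13.4%. Their median log2 ratios were 2.24 and 2.86, where all genes had -0.04 and 0.03. Irf7, the factor that amplifies type I interferon responses, had 2.78 and 3.41, and Ifi209, a PYHIN gene, 2.41 and 3.11. Slfn5, a Schlafen family member, had 3.17 and 4.49.

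The exceptions were Ly6e, at 0.69 and 0.33, and in the WT host Slfn2, a regulator of T cell quiescence, at 0.75. Ifi27l2a was raised by 1.60 and 2.36. Beyond the members, the 10 genes whose level over WT-host cells was closest to the core sum included Ifi214, Cxcl10, Mndal, Ifi211, Rnf213, Gbp6, Iigp1, Ifi204 and Trafd1. Their Pearson correlations ran from 0.55 for Ifi214 to 0.35 for Trafd1 over 352 cells, and in the MARCH1-/- host they ran from 0.20 for Ifi211 and 0.23 for Iigp1 to 0.57 for Rnf213 over 156 cells. The median gene stood at -0.03 and -0.04, and the 95th percentile of genes at 0.11 and 0.17. Of these 10, only Trafd1 was not on the list of further interferon pathway genes. Cxcl10, a chemokine that draws CXCR3-bearing T cells, came to 605 CPM in strong and 16.7 CPM in other WT-host cells, and to 640 and 21.5 CPM in the MARCH1-/- host.

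Strong cells were found in every class of cell examined, cycling cells included (4 of 82, 4.88%, 1.34 to 12, and 1 of 52, 1.92%, 0.0487 to 10.3). The 1 cycling strong cell of the MARCH1-/- host had 48 core UMIs among 16946 UMIs. Leaving out the cells marked by Scrublet lowered the cycling core ratio of that host, so this cell may be a doublet. Foxp3 encodes the regulatory T cell factor. Among non-cycling cells with a Foxp3 UMI and under 2 type 2 cytokine UMIs, 7 of 33 (21.2%, 8.98 to 38.9) of the WT host and 3 of 18 (16.7%, 3.58 to 41.4) of the MARCH1-/- host were strong. With at least 2 UMIs of type 2 cytokines the shares were 3 of 77 (3.90%, 0.811 to 11.0) and 2 of 31 (6.45%, 0.791 to 21.4). Non-cycling cells with neither gave 24 of 160 (15%, 9.85 to 21.5) and 7 of 55 (12.7%, 5.27 to 24.5). The type 2 share of the WT host lay below that of the cells with neither, with intervals that overlapped only slightly, and its cells were the deeper, at a median of 7225 UMIs against 4528. In the MARCH1-/- host the intervals overlapped widely.

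Relative to their total UMIs, dividing cells had less of nearly every member. Cycling cells, those with at least 0.2% of their UMIs in 20 cell cycle genes, were 82 of 352 (23.3%) for the WT host and 52 of 156 (33.3%) for the MARCH1-/- host. The core sum was 142 CPM in cycling and 322 in other WT-host cells, a log2 ratio of -1.18 (-1.46 to -0.91). In the MARCH1-/- host it was 77.6 and 431 CPM, a log2 ratio of -2.47 (-2.87 to -2.09). The GTPases were at 244 and 441 CPM (-0.86, -1.07 to -0.64) in the WT host and at 244 and 698 CPM (-1.52, -1.76 to -1.28) in the MARCH1-/- host. Detection per cell did not follow these ratios in the WT host, with a GTPase UMI in 87.8% of cycling and 75.6% of other cells. In the MARCH1-/- host the shares of cells were 86.5% and 90.4%.

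The core sum of cycling cells rested on very few of them. A single cell held 63 of the 143 core UMIs in WT-host cells and 48 of 68 in MARCH1-/- host cells, and without it the cycling sums were 80.3 and 23.3 CPM. The WT-host ratio also depended on the cut. It was -0.64 with a cut of 0.4% and -1.92 without the 2 cells richest in core UMIs, a choice made after seeing the data. The cut itself ran through a continuum, with 64 and 21 cells near it. Cycling cells were deeper, at medians of 11384 and 14856.5 UMIs against 5075 and 6305.5 in the others, and the part of depth in the lower shares was not tested.

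Per gene, 41 of 42 members with at least 20 UMIs were lower in CPM in the cycling cells of the WT host, where 56.8% of all genes were. In the MARCH1-/- host 36 of 36 with a ratio were lower, where 54.5% of all genes were. There 37 members had at least 20 UMIs, but Slfn5 had 0 in cycling cells and so no ratio. The shares of all genes enter such genes at 3 counts. At least 2-fold lower were 23 and 26 of the members with a ratio, against 8.86% and 10.3% of all genes, and none was 2-fold higher (7.88% and 10.3% of all genes). Ifit2 was the exception in the WT host, at 16.9 against 10.9 CPM, but 13 of its 34 UMIs lay in 1 cell and the interval of its log2 ratio, -0.42 to 1.70, held 0. Slfn5 showed the deepest difference of the WT host, with 5 UMIs in cycling and 167 in other cells (log2 ratio -4.42, -6.06 to -3.17). In the MARCH1-/- host it had 0 and 83 UMIs. Ifi213 had 10 and 67 UMIs in WT-host cells and 1 and 28 in MARCH1-/- host cells.

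**Figure D4:**
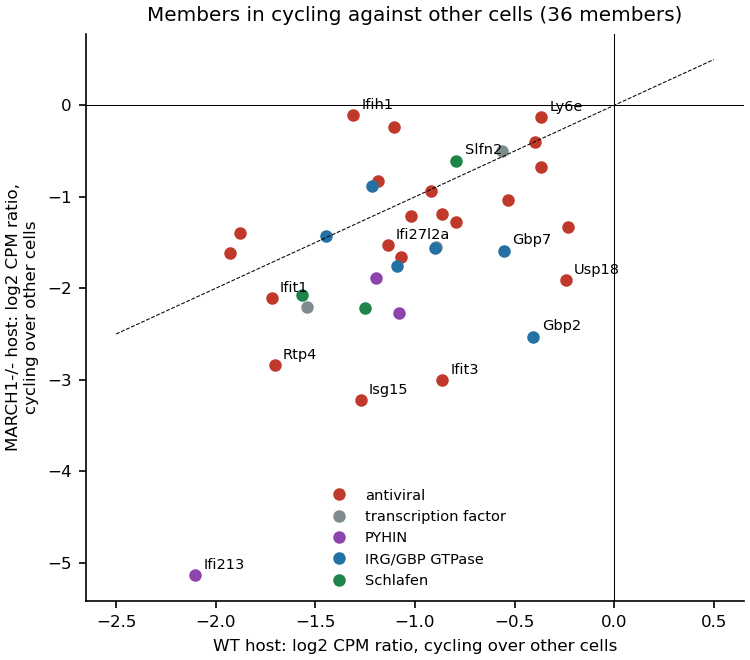
Log2 CPM ratio of cycling over other cells in the WT host (horizontal) and the MARCH1-/- host (vertical) for the 36 members with a ratio in both, coloured by role, with the line of equal ratios dashed. All 36 lie below 0 on both axes, and Ly6e (-0.37 and -0.13) lies nearest to 0 overall while Isg15 (-1.27 and -3.22) and Ifi213 (-2.10 and -5.13) lie low in the MARCH1-/- host.

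Isg15 was at 50.8 CPM in cycling and 123 CPM in other cells of the WT host, and at 21.7 and 202 CPM in those of the MARCH1-/- host. Gbp2, a GTPase that attacks pathogen vacuoles, was at 30.8 in cycling and 40.9 CPM in other WT-host cells, with an interval that held 0 (-1.07 to 0.24), and at 17.1 and 98.7 CPM in the MARCH1-/- host (log2 ratio -2.53, -3.44 to -1.71). Irgm1, a regulator of the other immunity-related GTPases, was lower alike, by -1.45 and -1.43. Samhd1, which degrades nucleotides and limits viral reverse transcription, was at 120 and 244 CPM and at 194 and 449 CPM. Whether the cycling difference itself differed between the hosts had no replicate to test it.

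Between the hosts most members stood close to each other, and the large differences were lower values in the MARCH1-/- host. Of 42 members with at least 20 UMIs, 19 were higher (67.0% of all genes) and 23 lower (33.0%), with a median log2 ratio of -0.04 where all genes had 0.25. None was at least 2-fold higher (8.97% of all genes) and 4 were at least 2-fold lower (3.90%). The count of 4 was 7 without doublets, 7 with cells weighted equally, 7 without the 5% highest cells and 8 relative to the median gene or without the 2 cells of each library richest in core UMIs. The share of all genes was not computed under these alternatives, so 3.90% is no reference for them. The interval lay above 0 for 4 members (29.4% of all genes) and below 0 for 12 (9.89%).

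Ifi27l2a (ENSMUSG00000079017, GRCm38 chromosome 12, 103442167 to 103443680) held 13996 of the members' 23163 UMIs in the WT host and 3406 of 8918 in the MARCH1-/- host. It was at 5444 and 2162 CPM, a log2 ratio of -1.33 (-1.39 to -1.28). The median cell had 35.8 UMIs per 10000 (quartiles 10.7 and 87.2) in the WT host and 14.1 (4.45 and 33.0) in the MARCH1-/- host, so the difference was not the work of a few cells. Above 100 per 10000 stood 70 of 352 cells (19.9%, 15.8 to 24.4) and 6 of 156 (3.85%, 1.42 to 8.18). The ratio was -1.03 in non-cycling cells, -1.42 in cycling cells and -0.63 in strong cells. In barcodes with at most 100 UMIs the gene stood at 8433 and 2799 CPM, which adds 0.055 and 0.0076 expected stray UMIs per cell and would put a stray UMI in 57% and 24.4% of cells if each carried 100 free UMIs. Through this gene the sum of all members was 9009 CPM in WT-host cells and 5660 in MARCH1-/- host cells (log2 ratio -0.67), and without it 3565 and 3498 CPM (-0.03, -0.08 to 0.02).

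The other 3 members past 2-fold were scarce. Oas1a, a sensor of double-stranded RNA, had 40 UMIs in 32 WT-host cells and 4 in 3 MARCH1-/- host cells (-2.62, -4.56 to -1.15). Its close relative Oasl2 had 37 and 9 UMIs (-1.33, -2.57 to -0.26). Ifi208 had 93 UMIs in 58 cells and 15 in 13 cells (-1.93, -2.82 to -1.13). A minimum of 50 UMIs left 2 members past 2-fold.

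The PYHIN genes, which sense DNA and regulate transcription, differed in direction. Ifi203 was at 368 and 228 CPM in the WT and MARCH1-/- host (-0.69, -0.87 to -0.52) and Ifi213 at 29.9 and 18.4 CPM (-0.70, -1.37 to -0.07). Ifi209 was at 40.1 CPM in 66 cells and 73.6 CPM in 54 cells (0.88, 0.48 to 1.28), and in non-cycling cells at 50.4 and 132 CPM (1.38, 0.93 to 1.84). The copies lie side by side, Ifi203 overlaps Mndal on its strand, and they are alike in sequence, so reads could be assigned to the wrong copy. The direction per copy is uncertain for that reason.

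The core antiviral sum was similar in CPM between the hosts over all cells but below the median gene, and its ratio within classes of cells varied in sign. It was 252 CPM (233 to 272) in WT-host cells and 234 CPM (211 to 259) in MARCH1-/- host cells, a log2 ratio of -0.11 (-0.29 to 0.08). Relative to the median gene this ratio was -0.36. In strong cells it was 1970 and 3302 CPM (0.74, 0.53 to 0.96), in all other cells 78.0 and 47.1 CPM (-0.73, -1.14 to -0.32), and in cycling cells 142 and 77.6 CPM (-0.88, -1.31 to -0.45). The strong cut is made on the core UMIs themselves, so the ratios on either side of it only describe that split. Of the 299 core UMIs in strong MARCH1-/- host cells, single cells held 78, 48 and 42. In non-cycling cells the core sum was 322 and 431 CPM (0.42, 0.21 to 0.63), where the median gene had 0.24. It was 303 and 322 CPM (0.09, -0.15 to 0.32) without 1 such cell of each library, those among the 2 richest in core UMIs. Non-cycling cells that were not strong gave 103 and 80.0 CPM (-0.36, -0.86 to 0.11). One MARCH1-/- host cell held 78 of that library's 369 core UMIs. Over all cells, leaving out the same 2 cells of each library gave -0.47 and leaving out the 5% highest cells gave -0.63.

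Among the core genes, Rsad2 was lower in the MARCH1-/- host, at 37.7 and 19.7 CPM (-0.94, -1.57 to -0.34). Isg15 was at 94.5 and 102 CPM (0.10, -0.19 to 0.40), and Usp18, the protease that removes ISG15 and dampens IFNAR signalling, at 14.4 and 20.3 CPM (0.50, -0.23 to 1.22). Their intervals held 0. In non-cycling cells Usp18 passed 2-fold (1.16, 0.29 to 2.04), as did Ifi209 and Gbp2. The share of all genes past 2-fold in non-cycling cells was not computed. Isg15 stood there at 123 and 202 CPM (0.72, 0.39 to 1.04). Isg15 was at 60.4 and 49.6 CPM in those that were not strong (-0.29, -0.93 to 0.33), a cut that Isg15 itself enters.

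The GTPases as a sum stood near the median gene over all cells and above it in non-cycling cells. The GTPase sum was 364 CPM (341 to 388) in WT-host cells and 446 CPM (413 to 480) in MARCH1-/- host cells, a log2 ratio of 0.29 (0.15 to 0.43) that is near the median gene's 0.25. In non-cycling cells the sums were 441 and 698 CPM (0.66, 0.49 to 0.83), where the median gene had 0.24, and in cycling cells they were level at 244 and 244 CPM. Non-cycling cells that were not strong gave 340 and 525 CPM (0.63, 0.42 to 0.83). Leaving out the 2 cells of each library richest in GTPase UMIs, of which 1 WT-host and 2 MARCH1-/- host cells were non-cycling, gave a non-cycling ratio of 0.47 (0.29 to 0.65). Among non-cycling cells without a Foxp3 UMI it was 0.30 (0.09 to 0.50), an interval that held the 0.24 of the median gene in non-cycling cells.

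Per gene, 5 of the 6 GTPases were higher in the MARCH1-/- host, as were 67.0% of all genes, and Irgm1 was lower, all by under 2-fold over all cells. Relative to the median gene the log2 ratio of their sum was 0.04. Gbp2 was at 36.9 and 53.3 CPM (0.53, 0.09 to 0.97), and in non-cycling cells at 40.9 and 98.7 CPM (1.27, 0.76 to 1.79). Ifi47 was at 72.0 and 103 CPM (0.52, 0.21 to 0.84). Gbp7 was at 120 and 136 CPM (0.18, -0.08 to 0.43), and in non-cycling cells at 137 and 216 CPM (0.65, 0.34 to 0.96). Igtp overlaps its close relative Irgm2 on the same strand, Gbp4 overlaps Gbp8 and Gbp9, and the Gbp genes are near copies, so single members are less certain than the sum.

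The non-cycling cells with a Foxp3 UMI and under 2 type 2 cytokine UMIs stood apart between the hosts, on few cells. Their GTPase sum was 647 CPM over 33 WT-host cells and 1784 CPM over 18 MARCH1-/- host cells, and 550 and 1567 CPM without the richest cell of each. A GTPase UMI was seen in 24 of the 33 and in 18 of the 18 cells, at median depths of 4508 and 5936 UMIs. The core sum was 290 and 1032 CPM, but 78 of 103 core UMIs of the MARCH1-/- host came from 1 cell, and without the richest cell of each library the values were 230 and 268 CPM.

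Among the remaining members, Samhd1 was higher in the MARCH1-/- host, at 196 and 307 CPM and in 204 and 115 cells (0.65, 0.47 to 0.83), in cycling (0.69) as in other cells (0.88). The transcription factors were lower as a sum, at 146 and 102 CPM (-0.52, -0.80 to -0.25). Irf9, the DNA-binding subunit of the type I complex, was at 72.7 and 44.4 CPM (-0.71, -1.13 to -0.31), while Stat2 and Irf7 had intervals that held 0. In non-cycling cells the sum of the 3 factors had a ratio of -0.20 with an interval that held 0 (-0.53 to 0.12). The Schlafen sum was 581 and 566 CPM (-0.04, -0.16 to 0.08), with Slfn8 lower at 51.3 and 29.8 CPM (-0.78, -1.30 to -0.29). Slfn8 and Slfn9 are near copies.

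Upstream of the members, Ifng was the only interferon ligand gene detected in the sorted cells. Of 20 listed, the other 19 had 0 UMIs in both libraries, which allows up to 1.17 CPM in WT-host and 1.90 CPM in MARCH1-/- host cells (3 counts per library) and does not show them to be absent. Ifng had 156 UMIs in WT-host cells and 33 in MARCH1-/- host cells (60.7 and 20.9 CPM, log2 ratio -1.53, -2.12 to -0.98). Its summed level was lower in strong than in other cells of the WT host (-1.11). The share of WT-host cells was not lower, with an Ifng UMI in 5 of 38 strong cells, against 42 of 352 cells in all. In the MARCH1-/- host an Ifng UMI was seen in 0 of 13 strong cells, against 11 of 156 cells in all. Ifng UMIs were spread unevenly over WT-host cells (evenness 0.36), so the summed level rested on few of them.

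The receptor chains were present. Ifnar1 was at 67.7 and 123 CPM in the WT and MARCH1-/- host (0.86, 0.56 to 1.17) and Ifngr1 at 315 and 318 CPM (0.01, -0.15 to 0.18). Ifngr2 was past 2-fold lower, with 20 and 5 UMIs (-1.29, -3.06 to 0.16), an interval that held 0. Socs3, a feedback inhibitor of cytokine signalling, had 37 and 61 UMIs (1.43, 0.81 to 2.06). Of the 14 JAK-STAT genes listed, 8 were higher (67.0% of all genes) and 6 lower (33.0%) in the MARCH1-/- host. Socs3 was the only one past 2-fold, where 8.97% of all genes were at least 2-fold higher.

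Of 82 further interferon-responsive genes, 66 had at least 20 UMIs. In the MARCH1-/- host 27 were higher (67.0% of all genes) and 39 lower (33.0%), with a median log2 ratio of -0.09. By at least 2-fold, 2 were higher and 9 lower (8.97% and 3.90% of all genes). Ifitm3, a membrane protein that blocks viral entry, was at 263 and 131 CPM (-1.01, -1.24 to -0.78), and Ms4a6b, a T cell membrane protein, at 155 and 305 CPM (0.98, 0.78 to 1.17). At least 2-fold higher in the strong cells were 45 of 59 of these genes in WT-host cells and 39 of 49 in MARCH1-/- host cells (6.36% and 13.4% of all genes).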

How the data were processed

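The authors deposited raw UMI counts, whole numbers for each gene in every barcode, from 10x Chromium 3' v3.1 libraries per the labels' protocols. Per the submitters' processing notes Cell Ranger 3.1.0 and mm10 were used. Per the file headers it was version 4. Which version and annotation made the counts is not given here. Positions come from GENCODE M21 (GRCm38) by gene ID, and promoters from RefSeq.

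Members, lists and rules were chosen with earlier results of these data known. All 44 members could be named, with the interferon ligands, receptors and JAK-STAT genes, the 12 further pathway genes with the most UMIs, the 10 genes correlated best with the core sum among those seen in at least 5% of WT-host cells, and markers. Deposited counts were summed per library and class of cells and scaled to CPM. With 1 library per group no p-value was computed; sums carry exact Poisson, ratios exact conditional binomial and shares Clopper-Pearson intervals. Ratios needed at least 20 UMIs, evenness 50. Doublets were kept; Scrublet (scanpy 1.11.5) marked 5 of 352 and 5 of 156 cells for an alternative. Other alternatives changed cell filters, scaling, weights, thinning, minimum, fold and the cuts for cycling and strong cells; 2 were added after seeing the data. Scripts (pandas 2.3.3, scipy 1.17.1, numpy 2.4.6 and matplotlib 3.10.9 under Python 3.11.15) were checked on simulated data. One of the 10 correlated genes is not reported here.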

Additional observations from a re-analysis of the deposited data

Results flagged for a closer look

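Barcodes above the mitochondrial limit entered no comparison, yet held member UMIs. In 72 such barcodes of the WT host with 77459 UMIs, the core antiviral members came to 194 CPM (15 UMIs, 108 to 319) and the GTPases to 581 CPM (45 UMIs, 424 to 777), against 252 and 364 CPM in the cells. The 25 such barcodes of the MARCH1-/- host held 1 core and 3 GTPase UMIs. The cause was not tested.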

How the results depend on the processing

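Of 143 values under the alternatives for the 16 members whose counting interval over all cells lay off 0, none changed direction; within classes of cells some did, as given for Isg15 and the core sum. Values below are log2 ratios of the MARCH1-/- over the WT host, or of cycling over other cells, and the cause of each shift was not tested beyond what the setting itself changes. The ratio of all members summed (-0.67) was -0.72 without Scrublet doublets, -0.77 when scaled without ribosomal protein and mitochondrial genes, -0.77 without the 5% highest cells, -0.63 with cells weighted equally, -0.42 without cycling cells, -0.73 without the 2 cells richest in core UMIs and -0.03 without Ifi27l2a. The core ratio (-0.11) was -0.63 without the 5% highest cells, -0.47 without those 2 cells and 0.42 without cycling cells, where its sign changed in a ratio whose interval held 0; the GTPase ratio (0.29) was 0.66 without cycling cells. Members at least 2-fold higher (0) numbered 1 with a 5% mitochondrial limit, 1 after thinning, 3 without cycling cells and 2 at 1.5-fold. Members at least 2-fold lower (4) numbered 7 without doublets, 7 without the 5% highest cells, 7 with equal weights, 2 with at least 50 UMIs, 8 relative to the median gene, 8 without the 2 richest cells and 11 at 1.5-fold. For these counts of higher and lower members the share of all genes under each alternative was not computed. The cycling ratio of the core was -0.75 with equal weights, -0.64 with a 0.4% cut and -1.92 without the 2 richest cells in the WT host, and -4.21 without doublets, -1.96 with a 0.4% cut and -3.79 without the 2 richest cells in the MARCH1-/- host; for the GTPases of the WT host the 0.4% cut gave -0.58. Thinning to 1000 UMIs gave strong shares of 1.76% and 1.28% and shares of core UMIs in the top 10% of cells of 82.7% and 94.5%, and 4 distinct genes gave 5.68% in the WT host. The other 76 summary values did not move beyond their interval or, for counts of members, beyond 1.5-fold. Of the values for single members 46 moved and 338 did not. No paired analysis was possible because each group had 1 library. Depth limits every share of cells with a UMI, and intervals treat UMIs as independent, so they are too narrow for genes held by few cells.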

Other observations

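Core genes were found together in the same cells. In the WT host, Isg15 was seen in 27 of the 37 cells with Ifit1 (73.0%) and in 63 of the 315 cells without it, and Rsad2 in 20 of those 37 (54.1%) and in 16 of the 315 (5.08%). Irf7 was seen in 21 of the 37 (56.8%) and in 57 of the 315 (18.1%). In the WT host 75 cells showed exactly 1 core gene, 21 showed 2 and 11 showed at least 5. In the MARCH1-/- host 33 cells showed exactly 1, and 1 cell showed all 9.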
